A study of Homo sapiens with 6 samples.

Results

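The genes described here are 39 genes of the endoplasmic reticulum (ER) that fold secreted and membrane proteins, dispose of those that misfold, sense an overload of them or carry them onward. They were chosen by name, as the entries of the deposited table whose gene symbol is one of 39 symbols, a rule that uses no measured value, though the symbols were listed with earlier results of these data known. All 39 were found among the 23355 entries with a gene symbol and all passed the filter on low counts, which 14053 entries passed. RNA was sequenced from the HFL-1 line, which consists of fibroblasts from human fetal lung, after transfection with Lipofectamine RNAiMAX and a non-targeting control siRNA (siNTC) or one of 2 siRNAs to TAZ (siTAZ #1 and siTAZ #2), in 2 libraries per group. TAZ, a transcriptional co-activator of the Hippo pathway, is encoded by WWTR1. All groups were in standard growth medium and were harvested 48 h after transfection, so the siNTC cells also carry the transfection itself. The cells are 1 line and the knockdown is transient. By the study's methods each TAZ siRNA had 2 transfections, and for siNTC the sources used here do not say whether the libraries came from separate cultures. The p-values therefore measure the spread between parallel libraries of 1 line.

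Proteins that enter the ER are folded there by Hsp70 and Hsp90 chaperones with their DnaJ co-chaperones, by lectin chaperones that hold glycoproteins, and by disulfide isomerases. When unfolded proteins accumulate, the sensors IRE1 (ERN1), ATF6 and PERK (EIF2AK3) set off the unfolded protein response, in which the transcription factors XBP1, ATF6 and ATF4 raise chaperone and ER-associated degradation (ERAD) genes. Fibroblasts secrete large amounts of procollagen, whose triple helix is folded by further chaperones of its own.

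The libraries held between 15648055 and 32078188 counts. In siTAZ #1 replicate 2, the counts were nearly missing from RANGAP1 on chromosome 22 to the end of Y, a stretch that held 578 of the genes tested and none of the 39, and of these XBP1 and SDF2L1 lie on chromosome 22 before it. The common dispersion, edgeR's estimate of the spread shared by all genes, was 0.0807 with the genes of that stretch and 0.0164 without them. The replicates differed by more than sampling noise in each group. WWTR1 was at 132 and 131 CPM (TMM-normalized counts scaled to a common library size) in the siNTC libraries, at 26.4 and 28.4 CPM under siTAZ #1 and at 46.1 and 43.1 CPM under siTAZ #2. All 10 fibroblast markers were at 1 CPM or more on average, and their summed level was 43001 to 43088 CPM with siNTC, 31483 to 33802 CPM under siTAZ #1 and 33349 to 35114 CPM under siTAZ #2. The summed markers of epithelial cells reached at most 5.61 CPM, those of endothelial cells 3.50 CPM and those of leukocytes 0.725 CPM in any library. At an FDR under 0.05, the 10 fibroblast markers moved in both directions. With siTAZ #1, 4 fell (40%, against 9.78% of all genes tested) and PDGFRA and PDGFRB rose (20%, against 10.8%). With siTAZ #2, 6 fell (60%, against 14.4%) and PDGFRB and THY1 rose (20%, against 14.1%). The part of the lower fibroblast marker sum in the results was not tested.

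The promoters of several of the 39 genes carry the letters of the ER stress response elements, the sequences bound by ATF6 and XBP1, and these are shown because such promoters belonged to genes that rose as well as to XBP1, which fell. The ER stress response element (ERSE) was searched as CCAAT and CCACG separated by 9 bases, ERSE-II as ATTGG and CCACG separated by 1 base, and the unfolded protein response element (UPRE) as TGACGTGG, each on both strands, from 250 bases before to 50 bases after each start in RefSeq (GRCh38.p14). Of the 39 genes, 35 matched a promoter entry, and FKBP14, PDIA3, DERL1 and FKBP10 did not. ERSE was found in 7 of the 35 (20%), against 0.0916% of all 27305 genes with an entry, a gene being counted if any of its promoters held the motif. ERSE-II was found in HERPUD1, HYOU1 and SDF2L1, 8.57% of the 35 against 0.0696% of all genes. UPRE was found in DNAJC10, HYOU1 and SEC23A, against 0.927% of all genes, and UPRE holds the reverse complement of CCACG, so the motifs can overlap. The bare CCACG was found in 25 of the 35 (71.4%) and in 42.1% of all genes. The ERSE matches, with CCAAT and CCACG in capitals and written in the direction in which CCAAT comes first, were as follows.
HSPA5: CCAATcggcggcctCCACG
HSP90B1, first match: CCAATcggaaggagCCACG
HSP90B1, second match: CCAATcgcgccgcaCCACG
CALR: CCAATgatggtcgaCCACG
CANX: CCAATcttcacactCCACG
PDIA6: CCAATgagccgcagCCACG
ERO1LB: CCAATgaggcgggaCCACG
XBP1: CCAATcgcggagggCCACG
The 250 bases before the start of HSPA5 (chr9:125241344-125241593, minus strand) and of XBP1 (chr22:28800570-28800819, minus strand, the first of the RefSeq entries for the gene) are printed in the direction of transcription, with the ERSE match in capitals.
HSPA5 promoter: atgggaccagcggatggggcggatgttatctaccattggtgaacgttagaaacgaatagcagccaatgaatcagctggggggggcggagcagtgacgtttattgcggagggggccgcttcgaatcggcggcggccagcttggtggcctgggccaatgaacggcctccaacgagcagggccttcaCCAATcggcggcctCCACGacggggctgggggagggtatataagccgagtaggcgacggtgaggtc
XBP1 promoter: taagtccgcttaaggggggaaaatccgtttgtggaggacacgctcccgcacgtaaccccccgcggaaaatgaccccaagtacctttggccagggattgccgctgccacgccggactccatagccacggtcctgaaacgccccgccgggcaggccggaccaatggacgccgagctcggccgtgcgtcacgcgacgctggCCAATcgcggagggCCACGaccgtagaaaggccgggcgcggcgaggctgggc
The match began 66 bases before the start in HSPA5 and 52 bases before it in XBP1. A match describes the letters alone, and binding was not measured. The 39 genes were chosen by name for their part in ER folding and its stress response. The higher shares of the stress elements among them thus describe that choice and are not a result of these libraries. Of the 7 genes with an ERSE match, PDIA6 and ERO1LB rose with siTAZ #1, as did 10.8% of all genes tested. HSPA5, HSP90B1 and CANX rose with siTAZ #2, as did 14.1% of all genes tested. With siTAZ #1, CANX had a log2 fold change of -0.38. XBP1 fell with each siRNA, as did 9.78% of all genes tested with siTAZ #1 and 14.4% with siTAZ #2. CALR did not pass the test with either. Each of these rises was lost without either siNTC library, and ERO1LB had 20 to 218 counts in a library. The fall of XBP1 with siTAZ #1 was lost without siNTC replicate 2.

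The 3 comparisons were made, of either siRNA with siNTC and of the siRNAs with each other, by the quasi-likelihood test of edgeR on all 6 libraries together, and p-values were adjusted by Benjamini-Hochberg (FDR) over the 14053 genes tested. At an FDR under 0.05, 5 of the 39 genes fell with siTAZ #1 (12.8%, against 9.78% of all genes tested) and 12 rose (30.8%, against 10.8%). With siTAZ #2, 7 fell (17.9%, against 14.4%) and 10 rose (25.6%, against 14.1%). The shares that fell were thus near those of all genes and slightly above them. They were also above them in 16 of the 18 alternative settings tried with siTAZ #1 and in all 18 with siTAZ #2. The share that rose was above that of all genes with siTAZ #1, also in all 18 alternative settings tried, and with siTAZ #2 in 13 of the 18 and below it in 5. The median log2 fold change of the 39 was 0.24 with siTAZ #1 and 0.10 with siTAZ #2, against 0.02 and 0.01 over all genes tested. Both comparisons use the same siNTC libraries, so the values with each siRNA are given side by side. In 14 of the 39 all 4 siTAZ libraries lay above both siNTC libraries (35.9%, against 18.6% of all genes), and in 9 they lay below both (23.1%, against 17.5%). In RNA from whole cultures, fewer cells with a transcript and less of it per cell cannot be told apart.

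**Figure D1:**
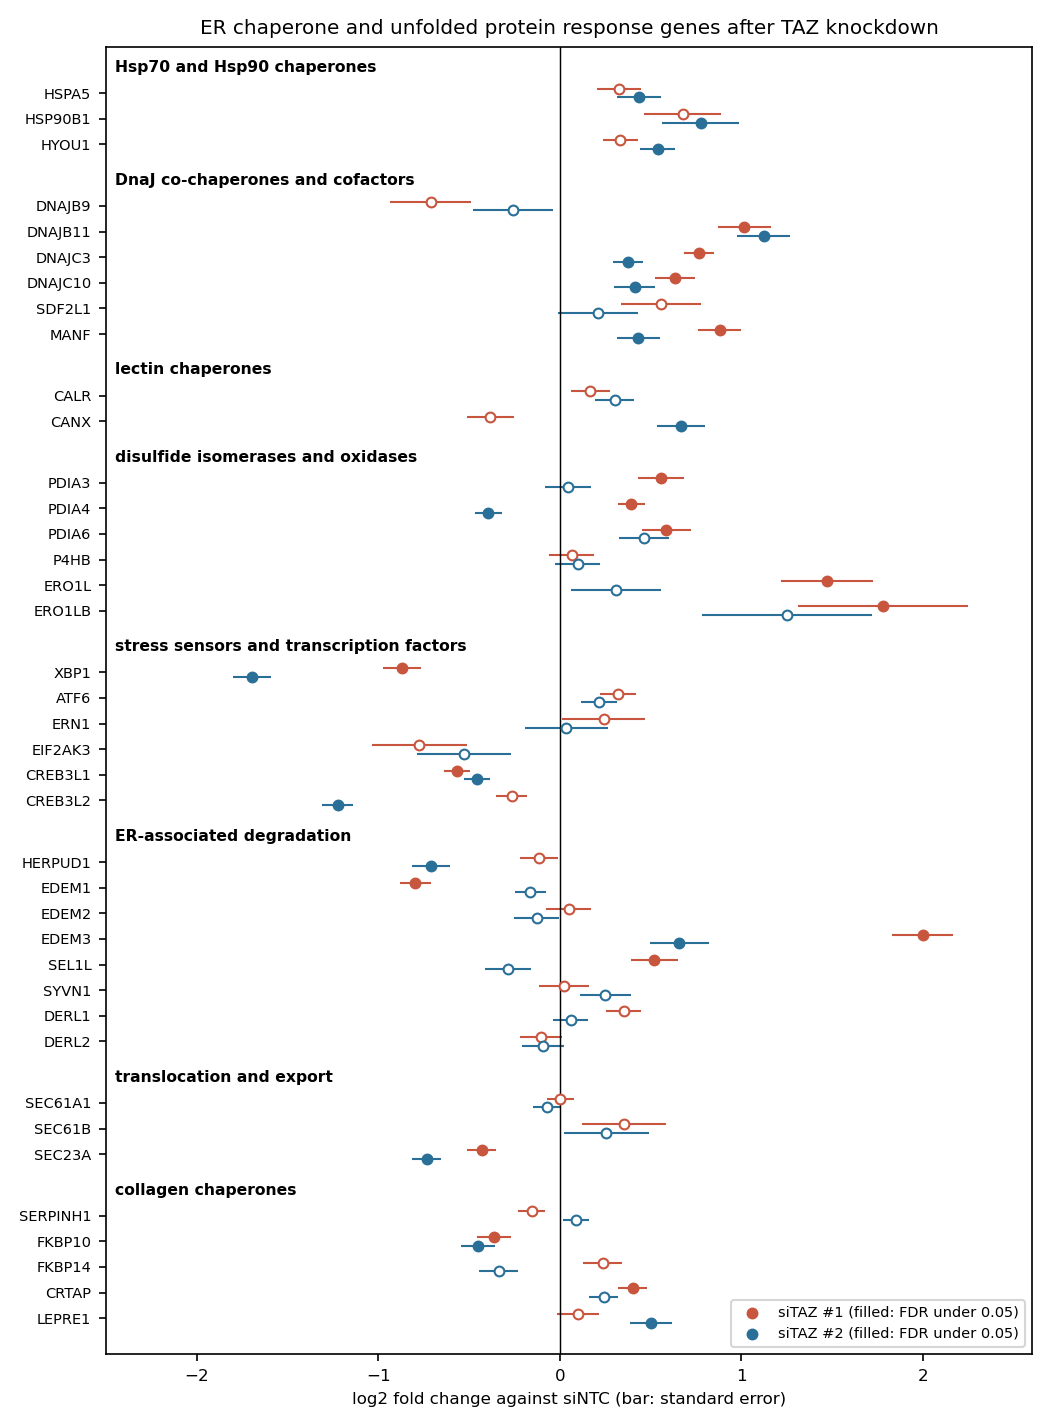
Log2 fold change against siNTC of each of the 39 genes, by role, with siTAZ #1 (red) and siTAZ #2 (blue). Bars are standard errors from edgeR and filled points have an FDR under 0.05. Of the 6 DnaJ co-chaperones and cofactors, 4 rose with each siRNA, while of the 6 sensors and transcription factors none rose, and 2 fell with siTAZ #1 and 3 with siTAZ #2. Of all genes tested, 9.78% fell and 10.8% rose with siTAZ #1, and 14.4% fell and 14.1% rose with siTAZ #2.

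These counts moved with single libraries, as did the shares over all genes tested, which are given beside them. Fits without a siNTC or siTAZ #2 library kept both siTAZ #1 libraries and the genes of the near-missing stretch, which raised the common dispersion. No fit left out a library and the stretch together. Calls lost without a library therefore cannot be told apart from the wider spread that came with the stretch. Without siNTC replicate 1, 2 of the 39 fell and 2 rose with siTAZ #1 (5.13% each, against 2.06% and 1.94% of all genes). Without siNTC replicate 2, 1 fell and 1 rose (2.56% each, against 1.89% and 1.91%). With siTAZ #2, leaving out siNTC replicate 1 or siNTC replicate 2 gave 3 lower (7.69%, against 5.29% and 4.88%) and 1 higher (2.56%, against 4.30% and 4.20%). The share that rose with siTAZ #2 was thus below that of all genes without either control library. It was also below without siTAZ #2 replicate 1 (2 genes, 5.13% against 6.49%), without siTAZ #2 replicate 2 (2 genes, 5.13% against 5.60%) and with a replicate block (3 genes, 7.69% against 9.46%). Without these 2 libraries in turn, 5 and 4 genes fell with siTAZ #2 (12.8% and 10.3%, against 6.79% and 6.87%). With siTAZ #1 they left 4 lower in each case and 8 and 6 higher (20.5% and 15.4%, against 7.12% and 6.79%). Without siTAZ #1 replicate 1, 5 fell and 16 rose with siTAZ #1 (12.8% and 41%, against 17.8% and 17.0%), and 10 fell and 14 rose with siTAZ #2 (25.6% and 35.9%, against 20.5% and 20.6%). Without siTAZ #1 replicate 2, the library with the near-missing counts, 7 fell and 16 rose with siTAZ #1 (17.9% and 41%, against 11.1% and 11.7%), and 10 fell and 14 rose with siTAZ #2 (25.6% and 35.9%, against 20.6% and 20.8%). When the genes of the near-missing stretch were left out and all libraries kept, 9 fell and 16 rose with siTAZ #1 (23.1% and 41%, against 14.8% and 15.7%), and 8 fell and 13 rose with siTAZ #2 (20.5% and 33.3%, against 19.2% and 19.5%). In all 18 alternatives tried, EDEM3 was called with siTAZ #1, and DNAJB11, XBP1, CREB3L2 and SEC23A were called with siTAZ #2.

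Levels in the siNTC libraries spanned more than 3 orders of magnitude on the scale of CPM per kb of the gene's canonical transcript, the scale on which genes can be compared. The calcium-binding lectin CALR was highest at 1452 CPM per kb, followed by P4HB at 774, SERPINH1 at 599 and HSPA5 at 305. SEC61A1, PDIA6 and HSP90B1 lay close together at 235, 233 and 231. The sensor ERN1, at 0.797, and the oxidase ERO1LB, at 0.425, were lowest. ERO1LB had 20 to 218 counts in a library, and overlaps GPR137B on the opposite strand, whose mean level was 14.4 CPM against 4.83 CPM for ERO1LB. The strand setting of the counting is not given in the sources used here, so reads of the overlap cannot be told apart.

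The Hsp70 and Hsp90 chaperones were higher in every siTAZ library than in either siNTC library, as were 18.6% of all genes tested. The 3 of them rose with siTAZ #2, as did 14.1% of all genes tested. HSPA5 (BiP, chr9:127997132-128003661 on GRCh37), the Hsp70 of the ER and the partner that holds the stress sensors inactive, was at 1214 and 1180 CPM with siNTC, 1338 and 1663 CPM under siTAZ #1 and 1683 and 1560 CPM under siTAZ #2. Its log2 fold change was 0.33 (SE 0.12, FDR 0.115) with siTAZ #1 and 0.44 (SE 0.12, FDR 0.0433) with siTAZ #2. The groups did not overlap between siNTC and siTAZ, but the siTAZ #1 libraries were far apart from each other. HSP90B1 (GRP94, chr12:104323885-104347709), the Hsp90 of the ER, was at 641 and 644 CPM with siNTC, 812 and 1242 CPM under siTAZ #1 and 1219 and 980.0 CPM under siTAZ #2. Its siTAZ #1 libraries also stood apart from each other, and the log2 fold change was 0.68 (SE 0.21, FDR 0.0757) with siTAZ #1 and 0.78 (SE 0.21, FDR 0.0424) with siTAZ #2. HYOU1 (GRP170), a nucleotide exchange factor for BiP, was at 435 and 443 CPM with siNTC, 579 and 527 CPM under siTAZ #1 and 598 and 677 CPM under siTAZ #2, a log2 fold change of 0.33 (SE 0.10, FDR 0.0591) with siTAZ #1 and 0.54 (SE 0.10, FDR 0.0108) with siTAZ #2. The calls with siTAZ #2 were lost without siNTC replicate 1 (FDR 0.102 to 0.192), without siNTC replicate 2 (0.095 to 0.223) and without siTAZ #2 replicate 2 (0.0756 to 0.127), and without siTAZ #2 replicate 1 for all but HYOU1 (0.0306 to 0.191). Over the 18 alternatives the FDRs of these 3 ran from 2.45e-12 to 0.223. Without the genes of the near-missing stretch, all 3 passed with siTAZ #1 too.

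Of the 6 DnaJ co-chaperones and cofactors, DNAJB11, DNAJC3, DNAJC10 and MANF rose with each siRNA (10.8% of all genes tested rose with siTAZ #1 and 14.1% with siTAZ #2). DNAJB11 (ERdj3, chr3:186285192-186303589), which delivers unfolded clients to BiP, was at 82.3 and 84.6 CPM with siNTC, 144 and 193 CPM under siTAZ #1 and 184 and 179 CPM under siTAZ #2. The siTAZ libraries of both kinds were clearly separate from siNTC, with a log2 fold change of 1.02 (SE 0.14, FDR 0.00722) with siTAZ #1 and 1.12 (SE 0.14, FDR 0.00386) with siTAZ #2. DNAJC3 (p58IPK, chr13:96329393-96447242), a co-chaperone that is also known as an inhibitor of PERK, was at 85.6 and 79.3 CPM with siNTC, 137 and 144 CPM under siTAZ #1 and 107 and 107 CPM under siTAZ #2. Its siTAZ #1 libraries were the highest and its siTAZ #2 libraries in between, with a log2 fold change of 0.77 (SE 0.08, FDR 0.00347) and 0.38 (SE 0.08, FDR 0.0215), respectively. DNAJC10 (ERdj5), a disulfide reductase that opens misfolded proteins for degradation, was at 120.3 and 111 CPM with siNTC, 163 and 195 CPM under siTAZ #1 and 159 and 148 CPM under siTAZ #2. Its siTAZ groups lay next to each other and both above siNTC, with a log2 fold change of 0.63 (SE 0.11, FDR 0.0142) with siTAZ #1 and 0.41 (SE 0.11, FDR 0.0409) with siTAZ #2. MANF (chr3:51422722-51426828), a small secreted protein that binds BiP, was at 112 and 104 CPM with siNTC, 217 and 180.0 CPM under siTAZ #1 and 138 and 153 CPM under siTAZ #2, with the order siNTC, siTAZ #2, siTAZ #1 and no overlap. Its log2 fold change was 0.88 (SE 0.12, FDR 0.00638) with siTAZ #1 and 0.43 (SE 0.12, FDR 0.0411) with siTAZ #2. DNAJB9 (ERdj4), a repressor of IRE1, and SDF2L1, a partner of DNAJB11, were at 8.58 to 28.5 CPM in all libraries and passed the test with neither siRNA (log2 fold change -0.71 and -0.26 for DNAJB9, 0.56 and 0.21 for SDF2L1). DESeq2, and edgeR without the near-missing stretch, did call DNAJB9 lower with siTAZ #1. Only DNAJB11 with siTAZ #2 kept its call without each library in turn. With siTAZ #1 the 4 calls came to FDRs of 0.0403 to 0.0863 without siNTC replicate 1 and 0.0505 to 0.118 without siNTC replicate 2, within a range of 6.9e-11 to 0.257 over the 18 alternatives. With siTAZ #2 the other 3 calls were lost without either siNTC or either siTAZ #2 library, with FDRs of up to 0.233, within a range of 1.54e-25 to 0.233.

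The lectin chaperones, which hold glycoproteins through their sugar chains, moved unequally. CANX (calnexin, chr5:179105629-179158642), the membrane-bound member, was at 697 and 728 CPM with siNTC, 479 and 614 CPM under siTAZ #1 and 1178 and 1087 CPM under siTAZ #2. It was lowest in the siTAZ #1 libraries and highest in the siTAZ #2 libraries, with a log2 fold change of -0.38 (SE 0.13, FDR 0.0932) with siTAZ #1 and 0.67 (SE 0.13, FDR 0.015) with siTAZ #2. CALR (calreticulin), the soluble member, was at 2761 and 2760 CPM with siNTC, 3108 and 3094 CPM under siTAZ #1 and 3095 and 3709 CPM under siTAZ #2, where all siTAZ libraries were above siNTC but the log2 fold changes of 0.17 (SE 0.11, FDR 0.323) and 0.30 (SE 0.11, FDR 0.0881) did not pass. With siTAZ #2, CALR was called higher in 8 of the 18 alternatives, among them DESeq2 and edgeR without the near-missing stretch (FDR 0.0208). With siTAZ #1, those 2 settings called CANX lower. The call of CANX with siTAZ #2 disappeared without siNTC replicate 1 (FDR 0.114), siNTC replicate 2 (0.0979), siTAZ #2 replicate 1 (0.0849) or siTAZ #2 replicate 2 (0.0639), within a range of 1.31e-11 to 0.114 over the 18 alternatives.

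Of the 6 disulfide isomerases and oxidases, 5 rose with siTAZ #1 (10.8% of all genes tested rose), while with siTAZ #2 1 fell and none rose (14.4% and 14.1% of all genes tested). The edgeR test gave 0 rises with siTAZ #2 in this group, where 2 of the 6 had an unadjusted p under 0.05 and a positive fold change, and DESeq2 called 2. ERO1L (ERO1-alpha, chr14:53106633-53162618), the oxidase that recharges protein disulfide isomerase, was at 38.6 and 36.9 CPM with siNTC, 83 and 126 CPM under siTAZ #1 and 54.9 and 38.7 CPM under siTAZ #2. The siTAZ #1 libraries were well above all others, and one siTAZ #2 library lay at the siNTC level, with a log2 fold change of 1.47 (SE 0.25, FDR 0.0131) with siTAZ #1 and 0.31 (SE 0.25, FDR 0.396) with siTAZ #2. ERO1LB (ERO1-beta), the paralogous oxidase, was at 2.98 and 1.26 CPM with siNTC, 7.94 and 6.69 CPM under siTAZ #1 and 3.79 and 6.34 CPM under siTAZ #2, at low counts and a log2 fold change of 1.78 (SE 0.47, FDR 0.0467) and 1.25 (SE 0.47, FDR 0.0993). PDIA4 (ERp72, chr7:148700154-148725754) was at 500.4 and 535 CPM with siNTC, 675 and 685 CPM under siTAZ #1 and 389 and 398 CPM under siTAZ #2. It thus rose with siTAZ #1 and fell with siTAZ #2, by log2 fold changes of 0.39 (SE 0.08, FDR 0.018) and -0.39 (SE 0.08, FDR 0.0138). PDIA3 (ERp57), the isomerase that works with CANX and CALR, was at 367 and 392 CPM with siNTC, 495 and 621 CPM under siTAZ #1 and 373 and 409 CPM under siTAZ #2, with siTAZ #2 overlapping siNTC and a log2 fold change of 0.55 (SE 0.13, FDR 0.0316) and 0.04 (SE 0.13, FDR 0.836). PDIA6, an isomerase that associates with BiP, was at 532 and 531 CPM with siNTC, 704 and 892 CPM under siTAZ #1 and 786 and 679 CPM under siTAZ #2. All its siTAZ libraries were above siNTC, with a log2 fold change of 0.59 (SE 0.14, FDR 0.0327) and 0.46 (SE 0.14, FDR 0.0513). P4HB, the classical protein disulfide isomerase and the beta subunit of prolyl 4-hydroxylase, was at 1819 to 2192 CPM in all libraries, with a log2 fold change of 0.07 and 0.10. The 5 calls with siTAZ #1 were lost without siNTC replicate 1 (FDR 0.0671 to 0.19) or siNTC replicate 2 (0.106 to 0.18), all but ERO1L and PDIA4 were lost without siTAZ #2 replicate 1 (0.0241 to 0.0725) and all but ERO1L without siTAZ #2 replicate 2 (0.0243 to 0.076), within a range of 1.42e-11 to 0.603 over the 18 alternatives. The call of PDIA4 with siTAZ #2 was lost without either siNTC or either siTAZ #2 library (FDR 0.0616 to 0.108), within a range of 0.000123 to 0.108.

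**Figure D2:**
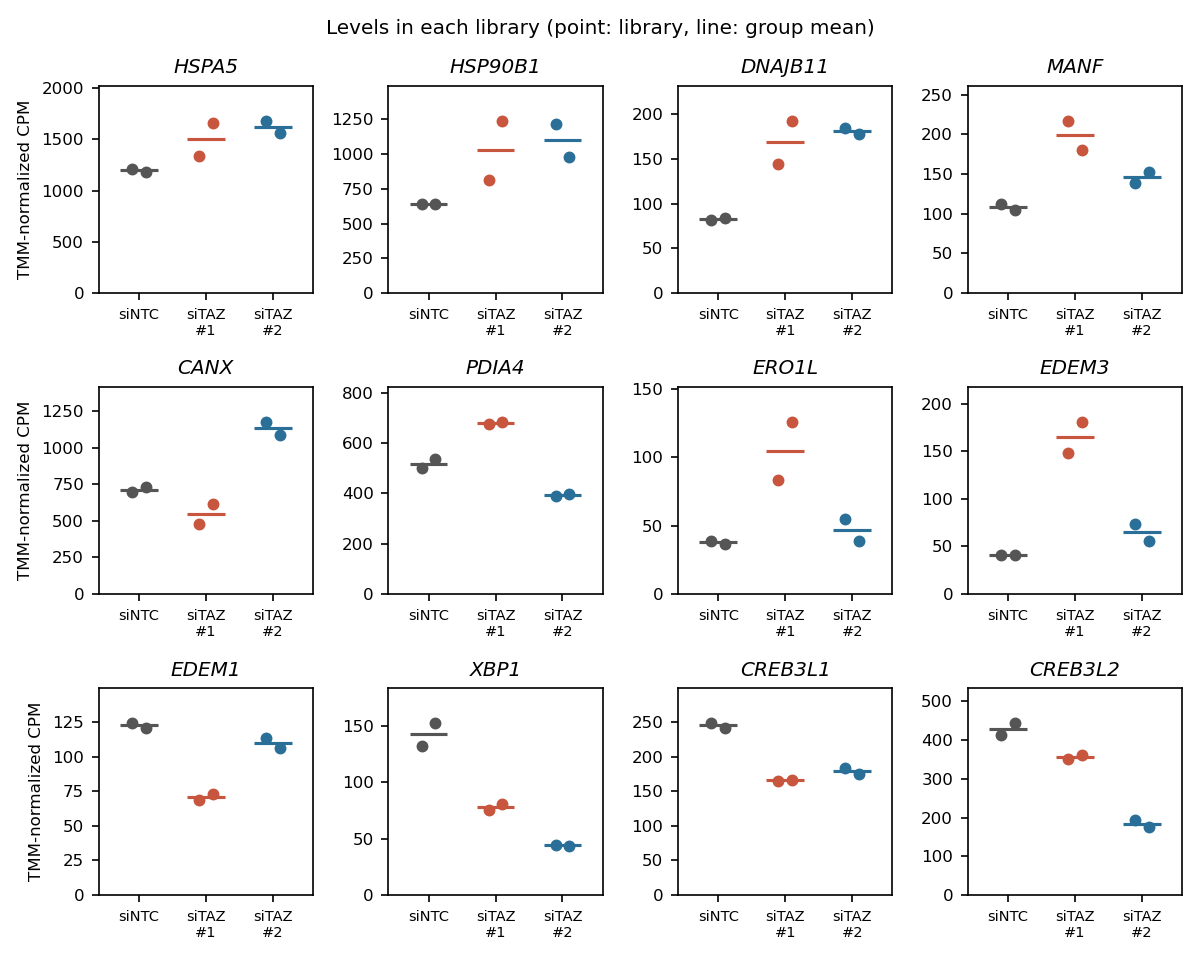
TMM-normalized CPM of 12 of the genes in each of the 6 libraries, by group. Points are libraries and lines are group means of 2 libraries. DNAJB11 and MANF are higher in every siTAZ library than with siNTC, XBP1, CREB3L1 and CREB3L2 are lower, and CANX and PDIA4 lie on opposite sides of siNTC with siTAZ #1 and siTAZ #2.

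Of the 6 stress sensors and transcription factors, none rose by edgeR or DESeq2, and ATF6 with siTAZ #1 was the 1 that was higher at an unadjusted p under 0.05. By edgeR, 10.8% of all genes tested rose with siTAZ #1 and 14.1% with siTAZ #2. XBP1 (chr22:29190543-29196585), the factor whose mRNA IRE1 splices, was at 132 and 153 CPM with siNTC, 75.7 and 80.4 CPM under siTAZ #1 and 44.7 and 43.4 CPM under siTAZ #2. It fell with each siRNA and was lowest with siTAZ #2, by log2 fold changes of -0.87 (SE 0.10, FDR 0.00459) and -1.69 (SE 0.11, FDR 0.000642), and gene counts do not separate its spliced from its unspliced mRNA. CREB3L1 (OASIS, chr11:46299213-46342959), a membrane-bound factor known to drive collagen secretion, was at 249.5 and 242 CPM with siNTC, 165 and 167 CPM under siTAZ #1 and 183 and 175 CPM under siTAZ #2. It fell with each siRNA without overlap, with log2 fold changes of -0.57 (SE 0.07, FDR 0.00552) and -0.46 (SE 0.07, FDR 0.00772). CREB3L2 (BBF2H7, chr7:137559725-137686832), its paralog, known to raise SEC23A in cartilage, was at 413 and 445 CPM with siNTC, 352 and 362 CPM under siTAZ #1 and 192 and 175 CPM under siTAZ #2. The siTAZ #2 libraries were far below the rest, with a log2 fold change of -0.27 (SE 0.09, FDR 0.0804) with siTAZ #1 and -1.22 (SE 0.09, FDR 0.000803) with siTAZ #2. CREB3L2 was called lower with siTAZ #1 too by DESeq2 and by edgeR without the near-missing stretch. None of the genes of the sensors passed with either siRNA. ATF6 was at 91.1 and 103 CPM with siNTC, 118 and 125 CPM under siTAZ #1 and 118 and 108 CPM under siTAZ #2, with all siTAZ libraries above siNTC and log2 fold changes of 0.32 (SE 0.10, FDR 0.0714) and 0.22 (SE 0.10, FDR 0.156). ERN1, which encodes IRE1, was at 5.52 and 7.07 CPM with siNTC, 6.77 and 8.07 CPM under siTAZ #1 and 6.31 and 6.58 CPM under siTAZ #2, with overlapping groups and log2 fold changes of 0.24 (SE 0.23, FDR 0.499) and 0.03 (SE 0.23, FDR 0.93). EIF2AK3, which encodes PERK, was at 21.4 and 30.9 CPM with siNTC, 12.4 and 18.1 CPM under siTAZ #1 and 17.4 and 18.8 CPM under siTAZ #2. Its siTAZ libraries were all below siNTC, whose own libraries were far apart, and the log2 fold changes were -0.77 (SE 0.26, FDR 0.0895) and -0.53 (SE 0.26, FDR 0.182). ATF6 passed with siTAZ #1 in 1 of the 18 alternatives, without siTAZ #1 replicate 1, and with siTAZ #2 in none. EIF2AK3 was called lower in 4 of the 18 with each siRNA, with siTAZ #1 by DESeq2 and without the near-missing stretch (FDR 0.0128) among them, and its FDRs ran from 0.00295 to 0.416 with siTAZ #1 and from 0.0169 to 0.606 with siTAZ #2. XBP1 and CREB3L2 kept their calls with siTAZ #2 without each library in turn. With siTAZ #1, CREB3L1 was lost without siNTC replicate 1 (0.0646) and both genes without siNTC replicate 2 (FDR 0.05 to 0.0582), within a range of 4.56e-10 to 0.273 over the 18 alternatives, and with siTAZ #2 CREB3L1 was lost without either siNTC library or siTAZ #2 replicate 2 (FDR up to 0.0666), within a range of 2.65e-46 to 0.0666 for the 3 calls.

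The ERAD genes split among themselves. EDEM3 (chr1:184659371-184724041), one of the mannosidase-like proteins that mark misfolded glycoproteins, had the highest log2 fold change of the 39 with siTAZ #1, and was at 41.5 and 41 CPM with siNTC, 148 and 181 CPM under siTAZ #1 and 73.9 and 56.1 CPM under siTAZ #2. The groups did not overlap, with siTAZ #1 far above the others and log2 fold changes of 2.00 (SE 0.17, FDR 0.00172) and 0.66 (SE 0.16, FDR 0.0321). Its paralog EDEM1 (chr3:5229331-5261643) was at 125 and 121 CPM with siNTC, 68.6 and 72.9 CPM under siTAZ #1 and 113 and 106 CPM under siTAZ #2, and thus fell with siTAZ #1, in the direction opposite to EDEM3, by a log2 fold change of -0.80 (SE 0.09, FDR 0.00338), against -0.16 (SE 0.08, FDR 0.204) with siTAZ #2. EDEM2, the other paralog, lay between 61.8 and 77.9 CPM in all libraries. SEL1L, the adaptor of the ubiquitin ligase HRD1, was at 136 and 131 CPM with siNTC, 172 and 210.2 CPM under siTAZ #1 and 118 and 101 CPM under siTAZ #2. It was above siNTC with siTAZ #1 and below it with siTAZ #2, with log2 fold changes of 0.52 (SE 0.13, FDR 0.0389) and -0.29 (SE 0.13, FDR 0.151). HERPUD1 (Herp, chr16:56966054-56978776), a short-lived component of the same ligase complex, was at 107 and 105 CPM with siNTC, 106 and 90 CPM under siTAZ #1 and 65.7 and 63.8 CPM under siTAZ #2. It fell with siTAZ #2, and its log2 fold change was -0.11 (SE 0.10, FDR 0.484) with siTAZ #1 and -0.71 (SE 0.10, FDR 0.00595) with siTAZ #2. SYVN1, which encodes HRD1, and the channel proteins DERL1 and DERL2 passed with neither siRNA, at log2 fold changes from -0.10 for DERL2 to 0.35 for DERL1 with siTAZ #1. DERL1 was called higher with siTAZ #1 by DESeq2 and by edgeR without the near-missing stretch. SYVN1 overlaps FAU and MRPL49, and DERL2 overlaps MIS12, each expressed in these cells. EDEM1 and EDEM3 kept their calls with siTAZ #1 without each library in turn, and SEL1L was lost without siNTC replicate 1 or 2 or siTAZ #2 replicate 1 or 2 (FDR up to 0.205), within a range of 1.12e-33 to 0.424 over the 18 alternatives for the 3 calls. With siTAZ #2 both calls were lost without siNTC replicate 1 (FDR 0.0528 to 0.153) or siNTC replicate 2 (0.0515 to 0.16), and EDEM3 also without siTAZ #2 replicate 1 (0.13), within a range of 9.24e-10 to 0.16.

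Of the 3 genes of translocation and export, SEC23A fell with each siRNA. SEC23A (chr14:39501123-39578850) is a subunit of the COPII coat that buds vesicles, among them those with procollagen, from the ER, and was at 401 and 435 CPM with siNTC, 306 and 314 CPM under siTAZ #1 and 255 and 248 CPM under siTAZ #2. The groups followed each other without overlap, with log2 fold changes of -0.43 (SE 0.08, FDR 0.0154) and -0.73 (SE 0.08, FDR 0.00227). SEC61A1 and SEC61B, subunits of the channel through which new chains enter the ER, passed with neither siRNA, at log2 fold changes of 0.00 and -0.07 for SEC61A1 and 0.35 and 0.25 for SEC61B. SEC23A kept its call with siTAZ #2 without each library in turn, and with siTAZ #1 lost it without siNTC replicate 1 (FDR 0.0773) or siNTC replicate 2 (0.123), within a range of 0.000138 to 0.492 over the 18 alternatives.

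The collagen chaperones moved in both directions. FKBP10 (FKBP65, chr17:39968932-39979465), a prolyl isomerase, was at 639.8 and 652 CPM with siNTC, 534 and 471 CPM under siTAZ #1 and 455 and 492 CPM under siTAZ #2, and fell with each siRNA, by log2 fold changes of -0.36 (SE 0.09, FDR 0.0438) and -0.45 (SE 0.09, FDR 0.0181). CRTAP and LEPRE1 (P3H1) are the partners of the complex that 3-hydroxylates procollagen, in which mutations cause recessive osteogenesis imperfecta. CRTAP was at 258 and 248 CPM with siNTC, 319.8 and 348 CPM under siTAZ #1 and 301 and 296 CPM under siTAZ #2, all siTAZ libraries above siNTC, with log2 fold changes of 0.40 (SE 0.08, FDR 0.0201) and 0.24 (SE 0.08, FDR 0.0698). LEPRE1 was at 353 and 316 CPM with siNTC, 384 and 335 CPM under siTAZ #1 and 441 and 506 CPM under siTAZ #2, with siTAZ #1 overlapping siNTC and log2 fold changes of 0.10 (SE 0.12, FDR 0.573) and 0.50 (SE 0.12, FDR 0.0258). SERPINH1 (HSP47), which binds the folded triple helix, was at 1223 and 1242 CPM with siNTC, 1087 and 1125 CPM under siTAZ #1 and 1309 and 1312 CPM under siTAZ #2. It lay slightly below siNTC with siTAZ #1 and slightly above with siTAZ #2, and neither log2 fold change passed (-0.16 (SE 0.07, FDR 0.188) and 0.09 (SE 0.07, FDR 0.413)). FKBP14, a further prolyl isomerase, was at 59.8 and 63.5 CPM with siNTC, 76.8 and 68.3 CPM under siTAZ #1 and 47.9 and 49.7 CPM under siTAZ #2, with log2 fold changes of 0.24 (SE 0.11, FDR 0.184) and -0.34 (SE 0.11, FDR 0.0667). FKBP14 was called lower with siTAZ #2 by DESeq2 and by edgeR without the near-missing stretch. The calls of FKBP10 and CRTAP with siTAZ #1 were lost without siNTC replicate 1 (FDR 0.124 to 0.187), siNTC replicate 2 (0.16 to 0.216) or siTAZ #2 replicate 2 (0.0533 to 0.075), and that of FKBP10 also without siTAZ #1 replicate 2 (0.0535) or siTAZ #2 replicate 1 (0.0771), within a range of 0.00132 to 0.621 over the 18 alternatives. Those of FKBP10 and LEPRE1 with siTAZ #2 were lost without either siNTC or either siTAZ #2 library (FDR 0.0539 to 0.182), within a range of 1.03e-05 to 0.182.

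Whether the siRNAs differed was tested directly. Of the 39 genes, 12 were higher with siTAZ #1 than with siTAZ #2 (30.8%, against 15.2% of all genes tested) and 2, CANX and EDEM1, were lower (5.13%, against 13.4%). The share that was higher was above that of all genes in all 18 alternatives. The share that was lower was not above it in 16 of the 18. It was above it in 2, with no filter on low counts (10.3%, against 7.78%) and without siTAZ #1 replicate 2. The widest gap upward was that of EDEM3, with a log2 difference (siTAZ #1 minus siTAZ #2) of 1.34 (SE 0.17, FDR 0.00338), followed by ERO1L with 1.16 (SE 0.25, FDR 0.0196). CREB3L2 differed by 0.96 (SE 0.09, FDR 0.00149) and XBP1 by 0.82 (SE 0.10, FDR 0.0036), and both were lower with siTAZ #2 than with siTAZ #1. CANX differed by -1.05 (SE 0.13, FDR 0.00356). PDIA4 and SEL1L differed by 0.79 (SE 0.08, FDR 0.00172) and 0.81 (SE 0.13, FDR 0.00752). For the Hsp70 and Hsp90 chaperones, no difference passed, with values of -0.11 (SE 0.12, FDR 0.54) for HSPA5, -0.10 (SE 0.21, FDR 0.762) for HSP90B1 and -0.21 (SE 0.10, FDR 0.166) for HYOU1. DNAJB11 and CREB3L1 passed with each siRNA and their differences of -0.10 (SE 0.14, FDR 0.63) and -0.11 (SE 0.07, FDR 0.307) did not pass. The differences of CANX, CREB3L2 and EDEM3 were called in all 18 alternatives and those of PDIA4, XBP1 and EDEM1 without each library in turn. The counts between the siRNAs moved when single libraries were left out, as did the shares over all genes tested, and a group then held 1 library.

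**Figure D3:**
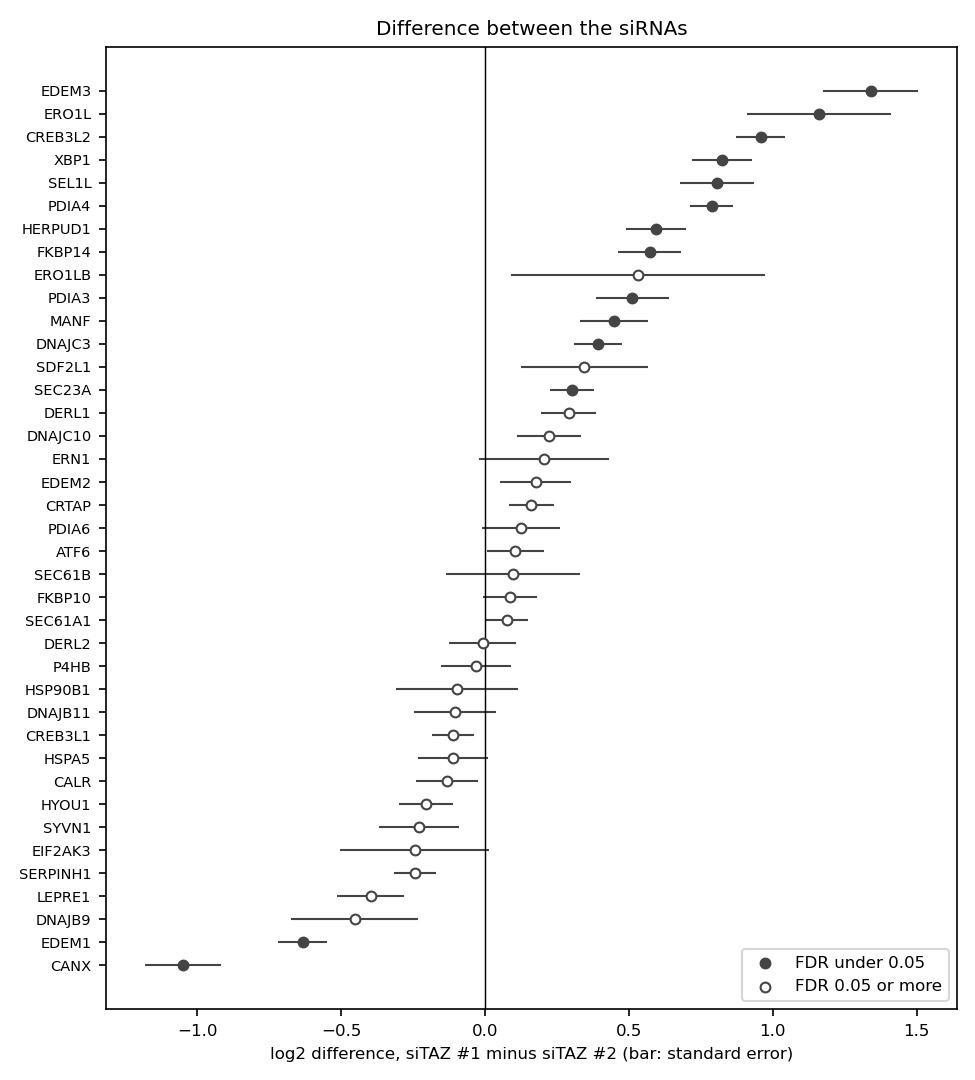
Log2 difference between siTAZ #1 and siTAZ #2 for each of the 39 genes, ordered by size. Bars are standard errors and filled points have an FDR under 0.05. The filled points are 12 genes higher with siTAZ #1, from SEC23A at 0.30 to EDEM3 at 1.34, and CANX and EDEM1 on the other side.

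A further 85 genes, mostly of the ER and the early secretory pathway, were listed beside the 39, of which 84 were found in the table and 83 were tested. With siTAZ #1, 6 fell and 15 rose (7.23% and 18.1%, against 9.78% and 10.8% of all genes tested), and with siTAZ #2, 11 fell and 20 rose (13.3% and 24.1%, against 14.4% and 14.1%). With all 6 libraries, the shares that fell were below those of all genes and the shares that rose above them. Without siNTC replicate 1 or siNTC replicate 2 this did not hold. The shares that fell were then above those of all genes, and with siTAZ #1 the share that rose was below. The median log2 fold change of these pathway genes in the fit of all libraries was 0.16 and 0.10. Among the genes called with each siRNA, TRAM1, a helper of translocation, had the highest mean fold change and was at 114 and 106 CPM with siNTC, 195 and 259.9 CPM under siTAZ #1 and 346 and 264 CPM under siTAZ #2 (log2 fold change 1.04 (SE 0.18, FDR 0.014) and 1.47 (SE 0.18, FDR 0.00366)). BBC3 (PUMA) followed with log2 fold changes of 1.09 (SE 0.21, FDR 0.0179) and 1.13 (SE 0.21, FDR 0.0121). It encodes a pro-apoptotic BH3-only protein, was listed with the stress sensors and is not itself a gene of the secretory pathway. SEC63, a J-domain partner of the translocation channel, came next with 0.59 (SE 0.13, FDR 0.025) and 0.75 (SE 0.13, FDR 0.00887). TRAM2, a paralog of TRAM1 linked to collagen synthesis, was lowest at 518 and 523 CPM with siNTC, 329 and 306 CPM under siTAZ #1 and 326 and 329.7 CPM under siTAZ #2 (log2 fold change -0.71 (SE 0.08, FDR 0.00333) and -0.67 (SE 0.08, FDR 0.00266)). SRPR, a subunit of the signal recognition particle receptor, had log2 fold changes of -0.42 (SE 0.11, FDR 0.0423) and -0.77 (SE 0.11, FDR 0.00501). MLEC (malectin), which binds newly glucosylated glycans, was at 315 and 312 CPM with siNTC, 411 and 441 CPM under siTAZ #1 and 107 and 105 CPM under siTAZ #2, so that it rose with siTAZ #1 (0.44 (SE 0.08, FDR 0.0131)) and fell with siTAZ #2 (-1.57 (SE 0.08, FDR 0.000503)). The calls of TRAM1, TRAM2, SRPR and MLEC with siTAZ #2 were made in all 18 alternatives, and that of SEC63 in 15, the exceptions being without either siNTC library or siTAZ #2 replicate 1 (FDR up to 0.0739). The call of BBC3 with siTAZ #2 was made in 13 of the 18 and lost without either siNTC library or either siTAZ #2 library (FDR up to 0.0851) and with an offset for GC content, where the log2 fold change came to 0.44 (FDR 0.101). With siTAZ #1, TRAM2 was called in 17 of the 18, TRAM1 in 16, BBC3 and MLEC in 15, and SEC63 and SRPR in 11, and all but TRAM2 were lost without either siNTC library (FDR up to 0.114 for TRAM1, 0.118 for BBC3, 0.116 for MLEC, 0.146 for SEC63 and 0.232 for SRPR). SEC63 and SRPR were also lost with siTAZ #1 without either siTAZ #2 library. CRELD2, SSR4 and MBTPS2 lie in the near-missing stretch and their values with siTAZ #1 are not given. Without siNTC replicate 1 the counts were 4 lower and 0 higher with siTAZ #1 (15 higher at an unadjusted p under 0.05), and 5 and 4 with siTAZ #2. Without siNTC replicate 2 they were 4 and 0 (13 higher at an unadjusted p under 0.05), and 5 and 4, whereas DESeq2 on all libraries called 20 higher with siTAZ #1.

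The outputs of the PERK arm were listed as the transcription factor ATF4 and 6 genes that act downstream of it or are known to be induced with it. With siTAZ #2 all 7 fell, with a median log2 fold change of -1.16, and with siTAZ #1 TRIB3 and ASNS fell and the other 5 passed in neither direction. For these and the procollagen chains below, the shares over all genes tested were 14.4% lower and 14.1% higher with siTAZ #2, and 9.78% lower with siTAZ #1. ATF4 was at 520.2 and 534 CPM with siNTC, 594 and 549 CPM under siTAZ #1 and 233 and 239 CPM under siTAZ #2 (log2 fold change 0.12 (SE 0.08, FDR 0.337) and -1.16 (SE 0.08, FDR 0.000741)). DDIT3 (CHOP), the factor that ATF4 induces in lasting stress, was at 55.3 and 60.5 CPM with siNTC, 49.4 and 39.9 CPM under siTAZ #1 and 20.5 and 26.7 CPM under siTAZ #2 (log2 fold change -0.38 (SE 0.18, FDR 0.199) and -1.30 (SE 0.18, FDR 0.00527)). ASNS, asparagine synthetase, which amino acid shortage also induces through ATF4, was at 149.8 and 148 CPM with siNTC, 65.1 and 57.8 CPM under siTAZ #1 and 37.5 and 26.3 CPM under siTAZ #2. The list was made with earlier results on ATF4 in these libraries in view and is not independent evidence of its direction. Without either siNTC library, 4 of the 7 fell with siTAZ #2 by edgeR and 0 of 7 with siTAZ #1, where 2 were lower at an unadjusted p under 0.05 and DESeq2 on all libraries called 3. Without siTAZ #1 replicate 1, 4 fell with siTAZ #1, and without siTAZ #2 replicate 1, 5 fell with siTAZ #2. Of 5 procollagen chains, the clients of the collagen chaperones, 4 fell with siTAZ #1 (1 without either siNTC library), and with siTAZ #2 3 fell and COL5A1 rose. Without siNTC replicate 1, siNTC replicate 2 or siTAZ #2 replicate 1, edgeR called 0 lower with siTAZ #2, where 1, 3 and 2 were lower at an unadjusted p under 0.05, and DESeq2 on all libraries called 3. Without siTAZ #2 replicate 2, 1 fell with siTAZ #2.

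**Figure D4:**
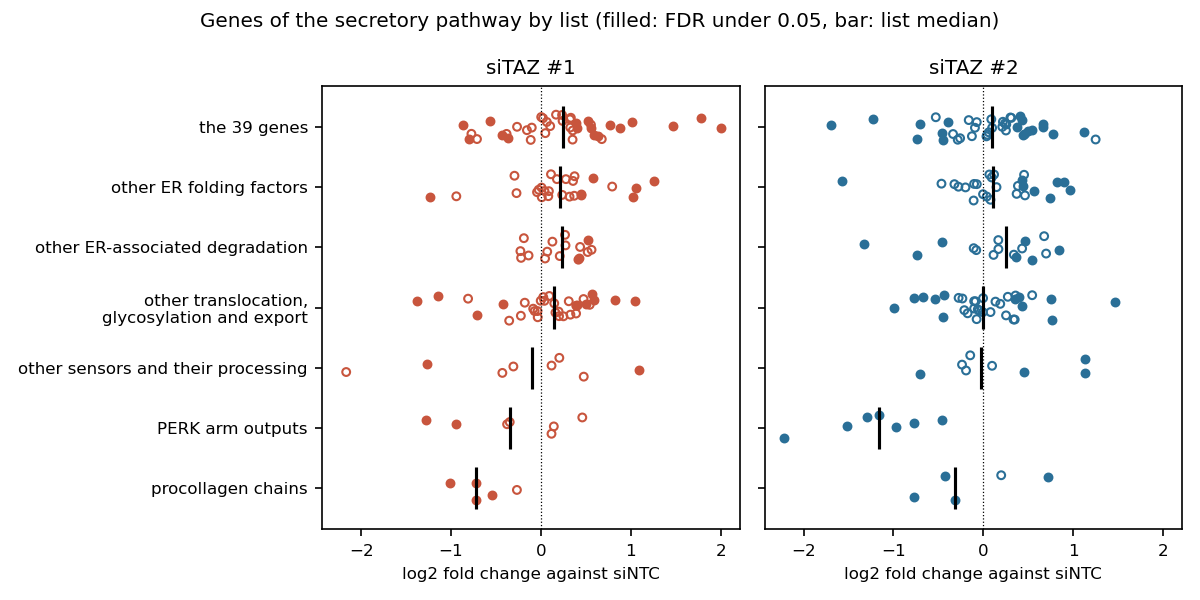
Log2 fold change against siNTC of the 39 genes, of the further pathway genes by list, of the PERK arm outputs and of the procollagen chains, with siTAZ #1 (left) and siTAZ #2 (right). Each point is a gene, filled with an FDR under 0.05, and the bar is the median of the list. The median of the PERK arm outputs lies at -0.35 with siTAZ #1 and at -1.16 with siTAZ #2, and that of the other ER folding factors at 0.21 and 0.11.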

How the data were processed

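The deposited values are raw counts per gene for 6 libraries in 3 groups, which the authors obtained from Ion Proton reads with TMAP (alignment to hg19) and HTSeq 0.6.1 (counting) and did not normalize. The strand setting and counting mode are not given in the sources used here. Of the 23368 entries of the table, 13 carry dates in place of symbols and were left out (0.0458% to 0.0506% of the counts of a library).

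Genes were filtered with filterByExpr, TMM-normalized and compared in edgeR 4.0.16 (R 4.3.3) by quasi-likelihood, with all 6 libraries in the fit and an FDR of 0.05. The SE is the absolute log2 fold change divided by the root of F. The script was tested on simulated data. The 39 genes, the further lists (pathway genes, PERK arm outputs, procollagen chains, markers) and the tests were chosen with earlier results of these data known. Members were given in every library if called in any comparison, or if among 8 preset genes, and the other pathway genes by the 3 lowest and 3 highest mean log2 fold changes among those called with each siRNA. Alternatives were DESeq2 1.42.0, edgeR's exact test, RLE or library-total scaling, other filters, a fit of 4 libraries, a GC offset, a replicate block, leaving out each library or the near-missing stretch and, chosen after seeing the data, the block without that stretch and a crossed block.

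Positions are those of GRCh37 (GENCODE), and lengths those of canonical transcripts. With 2 libraries per group, no permutation of a comparison can reach a p under 0.05, and the precision rests on a spread shared across genes and groups.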

Additional observations from a re-analysis of the deposited data

Results flagged for a closer look

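For 14 of the 39 genes, the effects of siTAZ #1 and siTAZ #2 against siNTC differed in the direct test (edgeR's quasi-likelihood test, FDR under 0.05 over all genes tested). Of the 39, 30.8% were higher with siTAZ #1, against 15.2% of all genes tested, and 5.13% were lower, against 13.4%. The log2 difference, siTAZ #1 minus siTAZ #2, was 1.34 for EDEM3, 1.16 for ERO1L, 0.96 for CREB3L2, 0.82 for XBP1, 0.81 for SEL1L and 0.79 for PDIA4. It was 0.60 for HERPUD1, 0.57 for FKBP14, 0.51 for PDIA3, 0.45 for MANF, 0.39 for DNAJC3 and 0.30 for SEC23A. It was -1.05 for CANX and -0.63 for EDEM1. WWTR1 itself was at 26.4 and 28.4 CPM with siTAZ #1 and at 46.1 and 43.1 CPM with siTAZ #2, and the part of this in the differences was not tested.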

How the results depend on the processing

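Counts below are of genes called lower or higher among the 39, or among the further pathway genes. RLE scaling left every count within 1.5 times its value, while other settings did not. With siTAZ #1, edgeR's exact test gave 1 lower and 4 higher of the 39 (2.56% and 10.3%) and 3 lower and 3 higher pathway genes, against 3.02% and 3.63% of all genes. Between the siRNAs it gave 1 lower and 3 higher of the 39 (2.56% and 7.69%) and 4 lower and 2 higher pathway genes, against 4.57% and 5.26% of all genes. DESeq2 and the removal of the near-missing stretch each gave 9 lower of the 39 with siTAZ #1 (23.1%, against 9.01% and 14.8% of all genes). Between the siRNAs, DESeq2, library totals alone, no filter, a mean count of at least 50, the removal of the stretch and the GC offset each gave 4 lower of the 39 (10.3%, against 7.78% to 18.5% of all genes). A fit of 4 libraries gave 10 higher pathway genes between the siRNAs. Apart from the removal of the stretch, which lowered the dispersion, the cause was not tested.

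Leaving out each library in turn gave, of the 39, 1 to 7 lower and 1 to 16 higher for siTAZ #1, 3 to 10 lower and 1 to 14 higher for siTAZ #2, and 2 to 8 lower and 4 to 15 higher between the siRNAs. For the pathway genes it gave 4 to 15 lower and 0 to 25 higher with siTAZ #1, 5 to 14 lower and 4 to 30 higher with siTAZ #2, and 4 to 18 lower and 7 to 24 higher between the siRNAs. A group left with 1 library is assumed to vary like the others.

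The sources used here do not say whether same-numbered libraries were prepared together. Their deviations from their group means correlated by -0.01 (siNTC and siTAZ #1), 0.02 (siNTC and siTAZ #2) and -0.28 (siTAZ #1 and siTAZ #2) over 11530 genes. With 2 libraries per group, these values do not show a pairing and cannot exclude it. The replicate block gave 7 higher of the 39 for siTAZ #1 (17.9%, against 6.18% of all genes) and 3 for siTAZ #2 (7.69%, against 9.46%). It gave 9 and 12 higher pathway genes. With the block and without the stretch, 8 of the 39 were lower with siTAZ #1 (20.5%, against 12.5% of all genes). The crossed block, chosen after seeing the data, gave 5 lower and 11 higher with siTAZ #1 (12.8% and 28.2%, against 8.85% and 9.73% of all genes). It gave 7 and 10 with siTAZ #2 (17.9% and 25.6%, against 13.5% and 13.2%), and 2 and 11 between the siRNAs (5.13% and 28.2%, against 12.7% and 14.7%).

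Of the log2 fold changes of single genes under the alternatives, 1103 of 1332 kept both direction and side of the threshold, 202 lost the call, 25 gained it and 2 changed sign. Those 2 were ERN1 with siTAZ #2, at -0.15 without siNTC replicate 1 and -0.02 without siTAZ #2 replicate 2, where leaving out each library gave -0.15 to 0.21. The low counts of ERO1LB and ERN1 limit what can be said of them.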

Other observations

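Among the further pathway genes, the pair LMAN1 and MCFD2, the cargo receptor that carries blood clotting factors V and VIII out of the ER, fell together with siTAZ #1. LMAN1 was at 263 and 289 CPM with siNTC, 96.2 and 116 CPM with siTAZ #1 and 267 and 248 CPM with siTAZ #2, a log2 fold change of -1.38 (SE 0.12, FDR 0.00177) with siTAZ #1 and -0.10 (SE 0.12, FDR 0.557) with siTAZ #2. MCFD2 was at 315 and 306 CPM with siNTC, 145 and 135 CPM with siTAZ #1 and 275 and 309 CPM with siTAZ #2, a log2 fold change of -1.15 (SE 0.09, FDR 0.00145) with siTAZ #1 and -0.09 (SE 0.09, FDR 0.518) with siTAZ #2. The difference between the siRNAs was -1.27 (SE 0.12, FDR 0.00161) for LMAN1 and -1.06 (SE 0.09, FDR 0.00132) for MCFD2. These genes were picked after their values were seen.

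WFS1 (wolframin), an ER membrane protein that is induced in ER stress, rose with siTAZ #2 (1.13 (SE 0.10, FDR 0.00142)), and its log2 fold change with siTAZ #1 was -0.31 (SE 0.10, FDR 0.0851). It was at 82.1 and 76.4 CPM with siNTC, 68.1 and 60.1 CPM with siTAZ #1 and 166 and 180.3 CPM with siTAZ #2, with a difference between the siRNAs of -1.44 (SE 0.10, FDR 0.000917). FKBP9, a prolyl isomerase of the ER, was at 221 and 241 CPM with siNTC, 105 and 90.9 CPM with siTAZ #1 and 339 and 344 CPM with siTAZ #2, so that it fell with siTAZ #1 (-1.24 (SE 0.10, FDR 0.00158)) and rose with siTAZ #2 (0.56 (SE 0.10, FDR 0.0107)). UBE2J1, an ubiquitin-conjugating enzyme of ERAD, fell with siTAZ #2 (-1.33 (SE 0.10, FDR 0.00092)), and its log2 fold change with siTAZ #1 was -0.23 (SE 0.10, FDR 0.158). The calls of LMAN1, MCFD2 and FKBP9 with siTAZ #1 and of WFS1 and UBE2J1 with siTAZ #2 were made in all 18 alternatives, while FKBP9 with siTAZ #2 was lost without either siNTC or either siTAZ #2 library (FDR up to 0.102). These genes were picked after their values were seen too.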
